A study of Rattus norvegicus with 13 samples.

Results

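The cytokine and chemokine genes described here are Mif, Ccl2, Cx3cl1, Cxcl12, Il1b, Csf1 and Tgfb1 in rat kidney glomeruli, the capillary tufts that filter blood. Every probe set annotated with one of these symbols and no other gene was taken, which gave 9 probe sets of 15923 on the array, 3 for Cxcl12 and 1 for each of the other 6 genes, or 7 of 10411 genes with such a probe set. RNA came from 13 samples of Lewis-Hsd rats aged 18 weeks on a regular diet, whose source and treatment labels say untreated, and per the labels the study asked how glomeruli isolated in bulk compare with microdissected ones from the paired kidney. In the sieved group (titled iron, n = 4) the kidney was perfused with iron oxide and glomeruli were isolated by sieve and magnet, with a stated purity over 99%, and their RNA was not amplified. In the groups LCM800 (n = 5) and LCM20 (n = 4) glomeruli were cut from 10 µm sections by laser capture microdissection and the RNA was amplified in 2 rounds. The protocol names about 800 cross-sections for both LCM groups, and what the 20 in the title counts is not given in the sources used here. The labels conflict in places: the extraction text of the sieved samples speaks of normal and anti-Thy1.1 rats (a model of glomerular injury), and the description of every sample speaks of embryos. The samples are taken as untreated glomeruli here from the source and treatment labels. Each sample is titled a biological replicate, but the labels tie none to a rat, so p-values measure the spread between these samples.

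Macrophage migration inhibitory factor, the product of Mif, is a cytokine that many cells, among them renal tubular epithelial cells, keep preformed and release when stressed or damaged. It signals through CD74 with CD44 as a co-receptor. The chemokines encoded by Ccl2, Cx3cl1 and Cxcl12 guide leukocytes, and Cxcl12 is also made by podocytes during glomerular development. Il1b and Csf1 encode interleukin-1β and the growth factor of monocytes and macrophages, and Tgfb1 encodes a latent factor that drives matrix synthesis once released. In glomerular disease these mediators are known from leukocyte recruitment and scarring.

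The sequence just before the transcription start is shown for 3 members: Mif, which was lower in the microdissected groups, and Il1b and Cxcl12, which had probe sets that were higher there. The sequences are from RefSeq on build GRCr8, whose promoter table held 5 of the 7 members (Mif, Cx3cl1, Cxcl12, Il1b and Tgfb1). Each is the 250 bases before the start, 5′ to 3′ in the gene's direction, at chr20:12790107-12790356 on the plus strand for Mif, chr3:137036582-137036831 on the minus strand for Il1b and chr4:152060531-152060780 on the plus strand for Cxcl12. Capitals mark the letters TATAAA (the TATA box motif) and GGGCGG (the GC box motif), searched on both strands.
Mif: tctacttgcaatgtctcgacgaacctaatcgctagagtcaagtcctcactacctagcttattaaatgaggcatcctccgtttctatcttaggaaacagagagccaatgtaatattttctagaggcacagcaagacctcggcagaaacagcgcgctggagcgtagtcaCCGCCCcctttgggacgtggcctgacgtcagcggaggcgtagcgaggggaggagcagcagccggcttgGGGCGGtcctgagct
Il1b: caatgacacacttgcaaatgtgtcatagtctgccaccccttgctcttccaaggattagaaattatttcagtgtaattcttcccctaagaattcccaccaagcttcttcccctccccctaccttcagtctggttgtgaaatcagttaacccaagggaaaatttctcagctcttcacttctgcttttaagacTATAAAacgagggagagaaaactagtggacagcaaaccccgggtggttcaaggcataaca
Cxcl12: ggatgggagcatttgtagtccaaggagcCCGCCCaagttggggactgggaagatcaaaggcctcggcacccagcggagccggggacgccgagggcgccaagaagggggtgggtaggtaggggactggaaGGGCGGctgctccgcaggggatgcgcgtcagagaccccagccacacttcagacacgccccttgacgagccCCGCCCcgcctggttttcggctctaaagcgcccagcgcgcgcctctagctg
The Mif window held 2 GC box matches and 16 CpG dinucleotides, and that of Cxcl12 held 3 matches and 20 CpG dinucleotides. The Il1b window held 1 TATA box match, 60 to 55 bases before the start, and 2 CpG dinucleotides. Over the 33469 windows of the table, 12.9% held the TATA box letters, 30.5% held the GC box letters, and the median was 5 CpG dinucleotides. These matches describe the letters and were not set against the array values.

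Array signals are MAS5 intensities without a physical unit, scaled so that arrays have a common mean level, and their median per array lay between 236 and 321. Changes are differences of mean log2(signal + 65.3) ± SE of the fit, with 65.3 taken at the 20th percentile of the table, and in consequence the change of a dim gene is smaller than the ratio of its signals. Adjusted p values are two-sided, come from limma with Benjamini-Hochberg adjustment over the 11106 probe sets that passed a filter on low signal, and were called under 0.05. Of the 9 probe sets 6 passed that filter, and the single probe sets of Ccl2 and Tgfb1 and 1 of Cxcl12 did not. The tests therefore cover 5 of the 7 genes. Sieved replicate 3 stood apart, with Pearson's r across probe sets of 0.873 to 0.897 to the other sieved arrays, which had 0.964 to 0.984 among themselves. LCM800 replicates 1, 2 and 3 had r of 0.893 to 0.930 among themselves and 0.718 to 0.812 to replicates 4 and 5. The excess of the 3′ over the 5′ signal of the β-actin control was 0.55 ± 0.02 in sieved, 2.77 ± 1.03 in LCM800 and 1.80 ± 0.45 in LCM20 arrays (mean log2 ± SD, n = 4, 5 and 4). The GAPDH control had 0.52 ± 0.15, 1.22 ± 0.49 and 1.14 ± 1.38, and the hexokinase control went the other way, with 0.73 ± 0.14, 0.23 ± 0.33 and 0.44 ± 0.31. Both comparisons below share the sieved arrays. Only the microdissected RNA was amplified, so effects of isolation and of amplification cannot be told apart in either comparison. The median change of all tested probe sets was 0.22 in LCM800 and 0.17 in LCM20 against sieved, and changes of members relative to it are given where they were called.

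Mif was bright in sieved glomeruli and near the bottom of the signal range in most microdissected samples. Its signal was 2867, 3146, 2201 and 3018 in the sieved arrays, with a mean of 2808 ± 421 (SD, n = 4). In LCM800 it was 102, 59.9, 62.4, 21.1 and 12.9, and in LCM20 it was 15.2, 10.2, 12.9 and 150. The ranges of sieved and microdissected samples did not overlap. The LCM20 value of 150 in replicate 4 lay far from the other 3, and without it the LCM20 mean fell from 47.1 to 12.8. Within each array's own ranking Mif stood at the 94.6th to 96.6th percentile in sieved samples. It stood at the 4.97th to 22.8th percentile in LCM800, and in LCM20 at the 3.67th to 4.43rd with 38.6 in replicate 4.

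Against sieved glomeruli Mif fell by 4.66 ± 0.31 in LCM800 (n = 5 and 4; limma adjusted p = 6.35e-08; −4.89 relative to the median of all probe sets) and fell by 4.82 ± 0.32 in LCM20 (n = 4 and 4; limma adjusted p = 1.15e-07; −4.99 relative to it). Ranked by change, Mif had the 9th lowest value of 11106 probe sets in LCM800 and the 4th lowest in LCM20. Without LCM20 replicate 4 the change was −5.19 (limma adjusted p = 2.76e-08; the alternatives gave 4.69e-10 to 1.28e-05). Since 4 of 5 LCM800 and 3 of 4 LCM20 signals were below 65.3, Mif passed the filter through its sieved level, and how far it fell depends on the constant added before the log. With no constant the changes were −6.12 and −6.89, and with 4 times the constant they were −3.29 and −3.33. LCM20 and LCM800 differed by −0.16 ± 0.31 (95% interval −0.81 to 0.49; limma adjusted p = 0.815), so the order of these groups is within their spread.

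Ddt, the paralogue of Mif that encodes D-dopachrome tautomerase, also fell by 2.34 ± 0.27 in LCM800 (n = 5 and 4; limma adjusted p = 7.15e-06) and fell by 2.45 ± 0.29 in LCM20 (n = 4 and 4; limma adjusted p = 1.09e-05). Its mean signal was 3428 in sieved, 620 in LCM800 and 590 in LCM20 arrays. Cd74, which encodes the Mif receptor and the class II invariant chain, fell by 1.85 ± 0.47 in LCM800 (limma adjusted p = 0.00403) and fell by 2.41 ± 0.50 in LCM20 (limma adjusted p = 0.00109). The co-receptor gene Cd44 fell by 0.94 ± 0.26 in LCM800 (limma adjusted p = 0.00762) and had a change of −0.12 ± 0.28 in LCM20 (limma adjusted p = 0.743). The other Cd44 probe set did not pass the filter and had −0.31 and −0.10 in the fit without it (limma adjusted p = 0.343 and 0.792). Cops5, whose product binds intracellular MIF, fell by 1.62 ± 0.37 in LCM800 (limma adjusted p = 0.002), and its change in LCM20 was −0.60 ± 0.39 (limma adjusted p = 0.223).

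Markers of several tubule segments moved in the same direction as Mif. Of 11 tested proximal tubule markers 10 were lower and 1 (Pck1) higher in LCM800, and 10 were lower and none higher in LCM20, where 20.1% and 19.2% of all probe sets were called lower. Ass1 had the largest fall in both, with −4.41 and −4.13. The summed signal of these 11 genes ran from 63123 to 122330 in sieved, from 26484 to 58222 in LCM800 and from 22093 to 45800 in LCM20 arrays. Of 8 markers of the loop, distal tubule and collecting duct 5 were lower and 1 (Aqp2) higher in LCM800, with a median change of −2.29, and 6 were lower and none higher in LCM20, with a median of −2.57. Their summed signal ran from 17731 to 38941, from 12578 to 19683 and from 4257 to 11161. None of the tubule markers had a group mean below 65.3, and their part in the Mif result was not tested. In whole samples such as these, fewer cells of a type and less RNA per cell cannot be told apart. Nor can isolation and amplification, which differed together between sieved and microdissected samples. The 3 genes whose log2 values over the 13 arrays were most like those of Mif were Rtn3 (Pearson's r = 0.99), which encodes a reticulon of the endoplasmic reticulum, Apoe (r = 0.99), the apolipoprotein E gene, and Fxyd2 (r = 0.99), a regulator of the sodium pump. All 3 were bright in sieved and dim in both LCM groups, as with Fxyd2 at mean signals of 7357, 379 and 379, so the likeness rests on the step between groups.

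**Figure D1:**
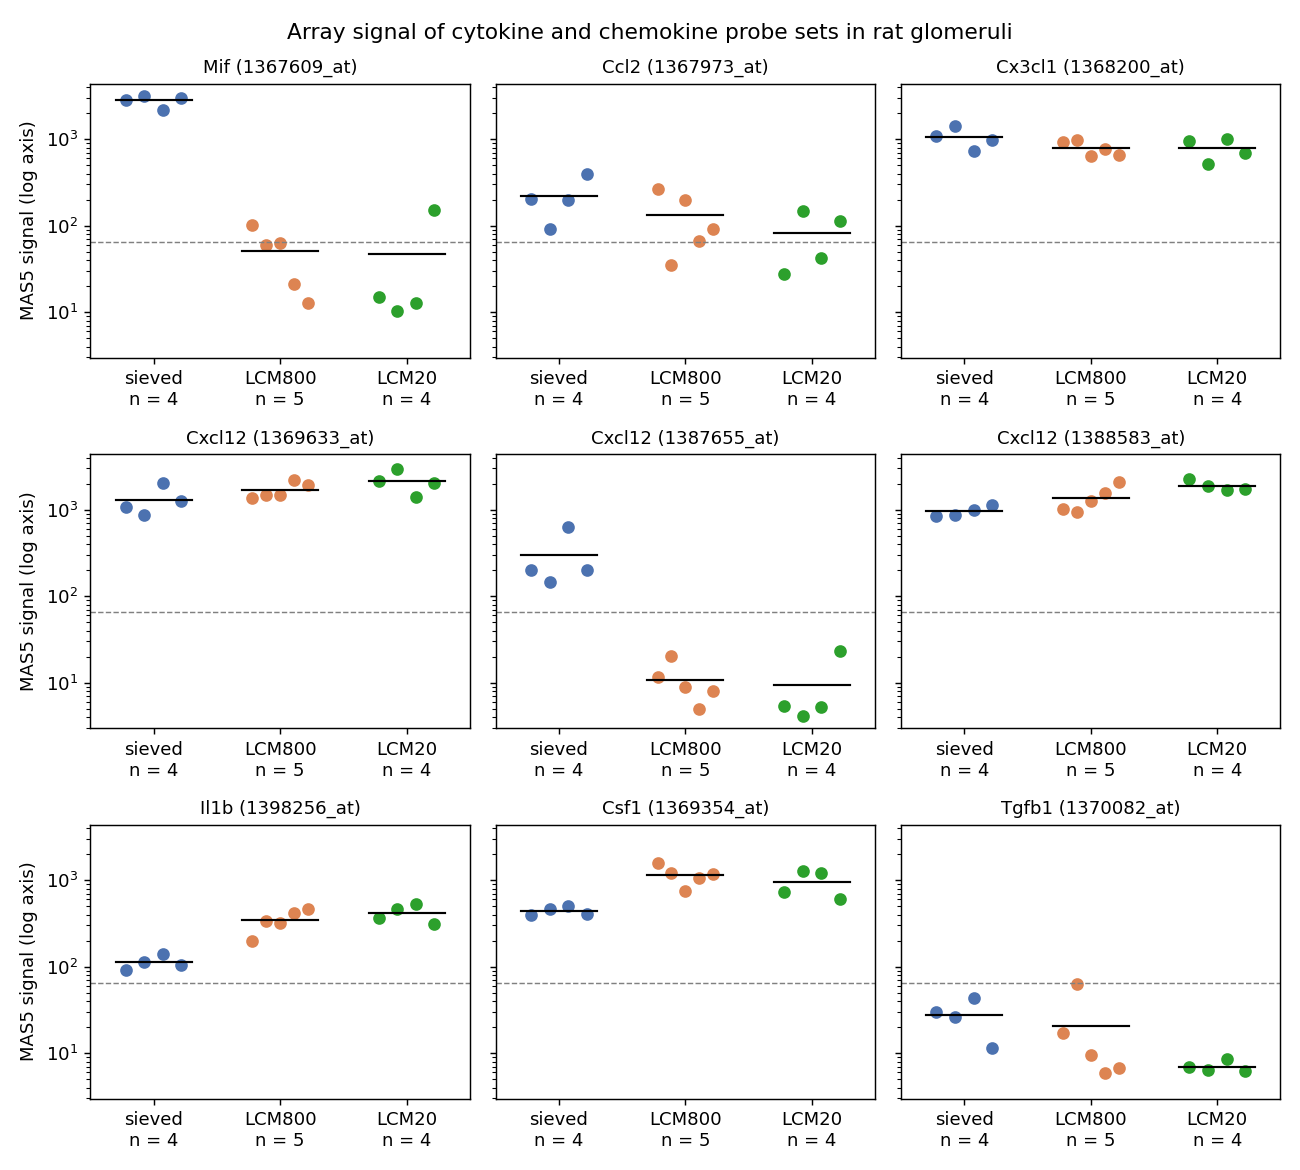
MAS5 signal (log axis) of each of the 9 probe sets in the 4 sieved, 5 LCM800 and 4 LCM20 samples, replicates in order from left to right, with a black line at the group mean and a dashed line at 65.3, the constant added before the log. Mif and the Cxcl12 probe set 1387655_at drop in both LCM groups, Il1b and Csf1 are higher there, and Tgfb1 lies below the dashed line in every sample.

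Among the chemokines, Cxcl12 gave different answers from its 3 probe sets. Probe set 1388583_at had signals of 851, 867, 981 and 1144 in sieved, 1014, 949, 1247, 1557 and 2071 in LCM800, and 2272, 1896, 1680 and 1732 in LCM20 samples. The 4 LCM20 samples all exceeded the sieved ones, while LCM800 overlapped with both. Cxcl12 rose by 0.93 ± 0.24 in LCM20 by this probe set (n = 4 and 4; limma adjusted p = 0.00583; 0.76 above the median of all probe sets). In LCM800 this probe set had a change of 0.43 ± 0.23 (limma adjusted p = 0.125), and without LCM800 replicates 1, 2 and 3 it passed at 0.87 (limma adjusted p = 0.00942, the lowest over the alternatives, which ran to 0.55).

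Probe set 1369633_at pointed the same way without passing. Its signals were 1081, 868, 2025 and 1258 in sieved samples, 1358, 1491, 1461, 2231 and 1953 in LCM800, and 2165, 2956, 1401 and 2047 in LCM20. Sieved replicate 3, at 2025, overlapped with both LCM groups. The change was 0.40 ± 0.27 in LCM800 (limma adjusted p = 0.219) and 0.70 ± 0.28 in LCM20 (limma adjusted p = 0.0528). Without sieved replicate 3 the LCM20 change passed at 0.93 (limma adjusted p = 0.0121) and without LCM20 replicate 3 at 0.89 (limma adjusted p = 0.0253); all alternatives together gave 0.00206 to 0.167. The mean of both tested probe sets also passed in LCM20, at 0.82 (limma adjusted p = 0.0125).

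The remaining Cxcl12 probe set, 1387655_at, went the opposite way. It gave 201, 146, 634 and 201 in sieved samples, 11.7, 20.4, 8.83, 5.01 and 7.98 in LCM800, and 5.45, 4.17, 5.1997 and 23.0 in LCM20. No microdissected sample came near the sieved ones. Its low mean kept it out of the tests. In the fit without the filter it fell by 2.08 ± 0.26 in LCM800 (limma adjusted p = 2.13e-05) and fell by 2.11 ± 0.27 in LCM20 (limma adjusted p = 3.86e-05). All its LCM800 and LCM20 signals were below 65.3, so how far it fell depends on the constant added before the log. The sieved mean of 296 rests partly on replicate 3 and is 183 without it, and the LCM20 mean of 9.46 is 4.94 without replicate 4. The platform annotation names the same GenBank record for this probe set and for 1369633_at. The parts of the transcript they target are not analysed here, and of the controls given above the mean 3′ excess was larger in both LCM groups for β-actin and GAPDH and smaller for hexokinase. The part of 3′ excess in the split between the probe sets was not tested.

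Summed signals of podocyte and glomerular endothelial markers tended to be higher in the microdissected samples, while single markers went both ways. The summed signal of 6 podocyte markers ran from 17666 to 44184 in sieved, 38157 to 68817 in LCM800 and 33649 to 51257 in LCM20 arrays, with 3 higher in each LCM group and 2 lower in LCM800 and 1 in LCM20. That of 7 glomerular endothelial markers ran from 5216 to 15864, from 13690 to 16817 and from 19126 to 25763, with 3 higher and 1 lower in each LCM group. Only the endothelial LCM20 range lay above that of sieved. Of all probe sets 31.8% were called higher in LCM800 and 26.2% in LCM20, and 20.1% and 19.2% lower. Median changes were 0.83 and 0.75 for podocyte and 0.69 and 0.19 for endothelial markers, against 0.22 and 0.17 for all probe sets. Of 6 mesangial markers 3 were higher in LCM800 and 1 in LCM20, none were lower, and their medians were 0.58 and −0.06. Tested probe sets of the podocyte genes Nphs1, Synpo and Wt1 had changes of opposite sign within each gene in both LCM groups. None of these markers had a group mean below 65.3, and their part in the Cxcl12 values was not tested.

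The receptors of the CXCL12 protein showed no call. Ackr3, which encodes a scavenging receptor, had changes of 0.16 ± 0.27 in LCM800 (limma adjusted p = 0.631) and 0.15 ± 0.28 in LCM20 (limma adjusted p = 0.689). The signalling receptor gene Cxcr4 had 0.46 ± 0.25 (limma adjusted p = 0.124) and −0.04 ± 0.26 (limma adjusted p = 0.915). The protease gene Dpp4, whose product can clip chemokines and which is abundant on the proximal tubule brush border, fell by 0.94 ± 0.31 in LCM800 (limma adjusted p = 0.0183) and fell by 1.60 ± 0.33 in LCM20 (limma adjusted p = 0.000978). Its other probe set had −2.90 and −2.26 (limma adjusted p = 1.89e-07 and 3.58e-06). Genes most like Cxcl12 (probe set 1369633_at) over the 13 arrays were Agtr1a (r = 0.94), an angiotensin receptor gene, Pja2 (r = 0.94) and Rapgef5 (r = 0.93). Agtr1a had mean signals of 955 in sieved, 1962 in LCM800 and 3228 in LCM20 arrays, so its r includes steps between groups.

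Cx3cl1, which encodes the membrane-bound chemokine fractalkine, was at a similar level in all groups. Signals were 1077, 1437, 724 and 980 in sieved, 929, 974, 637, 778 and 658 in LCM800, and 957, 518, 1014 and 688 in LCM20 samples. The groups overlapped throughout. Changes were −0.36 ± 0.24 in LCM800 (95% interval −0.87 to 0.15; limma adjusted p = 0.219) and −0.39 ± 0.25 in LCM20 (95% interval −0.92 to 0.15; limma adjusted p = 0.223), which do not exclude a fall. With array weights the LCM800 change passed at −0.52 (limma adjusted p = 0.0286, in a range up to 0.528). Adam17, which encodes a protease that sheds fractalkine, had changes of −0.07 and 0.39 that did not pass (limma adjusted p = 0.846 and 0.274). Its relative Adam10 fell by 1.08 ± 0.28 in LCM20 (limma adjusted p = 0.00531) by the brighter of its probe sets, while the other was at 0.05 (limma adjusted p = 0.879). The receptor gene Cx3cr1 rose by 0.77 ± 0.21 in LCM20 (limma adjusted p = 0.00778), and in LCM800 its change was 0.47 ± 0.20 (limma adjusted p = 0.0615). Nt5c3b (r = 0.90), Tmem79 (r = 0.89) and Neurl4 (r = 0.88) were the genes most like Cx3cl1.

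Ccl2, the monocyte chemoattractant gene, varied widely within each group, with mean signals of 222 in sieved, 132 in LCM800 and 82.5 in LCM20 samples. Its signals were 205, 91.4, 197 and 394 in sieved, 263, 35.5, 201, 66.2 and 92.7 in LCM800, and 27.7, 148, 42.0 and 112 in LCM20 samples. All groups overlapped. The fit without the filter gave −0.58 ± 0.38 in LCM800 (limma adjusted p = 0.229) and −0.94 ± 0.40 in LCM20 (limma adjusted p = 0.081). The SD of its log2 values was 0.63, 0.71 and 0.57 in sieved, LCM800 and LCM20, against medians over tested probe sets of 0.24, 0.39 and 0.36. Its receptor gene Ccr2 did not pass the filter. The genes most like Ccl2 were Fnbp4 (r = 0.85), Dis3l2 (r = 0.82) and Dlg5 (r = 0.81).

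Il1b and Csf1 were both higher in microdissected than in sieved glomeruli. Il1b had signals of 91.3, 114, 140 and 104 in sieved, 197, 337, 322, 417 and 468 in LCM800, and 369, 467, 533 and 315 in LCM20 samples. Every microdissected sample exceeded every sieved one. Il1b rose by 1.18 ± 0.22 in LCM800 (n = 5 and 4; limma adjusted p = 0.000413; 0.96 above the median of all probe sets) and by 1.43 ± 0.23 in LCM20 (n = 4 and 4; limma adjusted p = 0.000165; 1.26 above it). Its sieved mean of 113 is lower than the signal of 131 that corresponds to the filter, so Il1b passed the filter through the microdissected samples. LCM20 and LCM800 differed by 0.25 ± 0.22 (95% interval −0.22 to 0.72; limma adjusted p = 0.566).

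Csf1 gave 398, 464, 497 and 401 in sieved, 1571, 1219, 754, 1055 and 1187 in LCM800, and 727, 1278, 1208 and 600 in LCM20 samples. Here too the sieved range lay below all others. Csf1 rose by 1.24 ± 0.25 in LCM800 (n = 5 and 4; limma adjusted p = 0.000686; 1.02 above the median of all probe sets) and by 0.95 ± 0.26 in LCM20 (n = 4 and 4; limma adjusted p = 0.00776; 0.78 above it). The difference between LCM20 and LCM800 was −0.29 ± 0.25 (95% interval −0.82 to 0.23; limma adjusted p = 0.547). In sieved samples Csf1 stood at the 61.8th to 67.4th percentile of its array and Il1b at the 24.0th to 35.2nd. In the microdissected samples these ranges were 72.6 to 92.5 and 35.4 to 68.5.

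**Figure D2:**
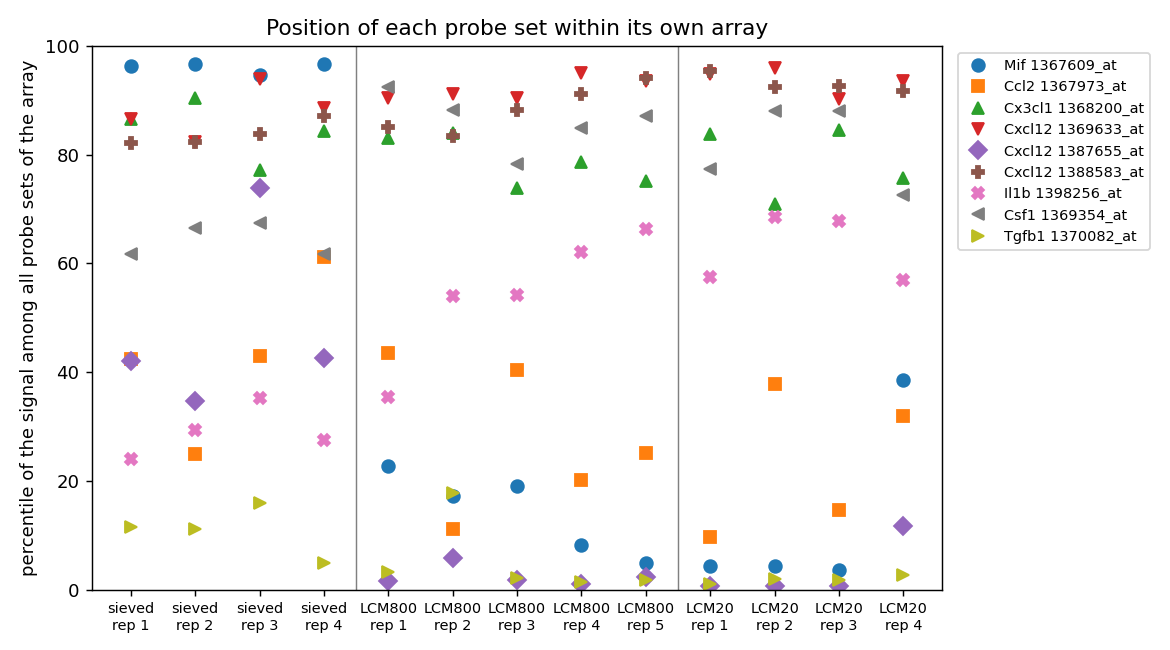
Percentile of each probe set's signal among all probe sets of the same array that are not controls, for the 13 arrays ordered by group and replicate. Mif moves from the 94.6th percentile or higher in sieved arrays to the 38.6th or lower in LCM arrays, while Il1b and Csf1 move upward and Cx3cl1 stays between the 70.9th and 90.5th.

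Genes around these cytokines moved with them in part. Casp1, which encodes the protease that activates interleukin-1β, rose by 1.79 ± 0.28 in LCM800 (limma adjusted p = 9.63e-05) and by 1.60 ± 0.30 in LCM20 (limma adjusted p = 0.000512). Pycard, the gene of the adaptor that recruits caspase-1, rose by 1.23 and 1.10 (limma adjusted p = 5.17e-05 and 0.000266). The receptor accessory gene Il1rap rose by 1.27 ± 0.25 in LCM800 (limma adjusted p = 0.000595) and by 1.19 ± 0.26 in LCM20 (limma adjusted p = 0.00182). Il1r1, Il1r2 and Il1rn did not pass the filter. Csf1r, which encodes the receptor for CSF1 and marks monocytes and macrophages, rose by 0.68 ± 0.18 in LCM800 (limma adjusted p = 0.00449) and by 0.47 ± 0.18 in LCM20 (limma adjusted p = 0.048).

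Leukocyte markers were measured beside them. Of 9 tested monocyte and macrophage markers 4 were higher and none lower in LCM800, and 2 were higher and none lower in LCM20, where 31.8% and 26.2% of all probe sets were called higher. Their median changes, 0.11 and −0.01, were below those of all probe sets, 0.22 and 0.17. The markers called were Cd68, Csf1r, Lyz2 and Aif1 in LCM800 and Csf1r and Lyz2 in LCM20. The summed signal of the 11 markers on the array ran from 4687 to 5645 in sieved, 6264 to 7657 in LCM800 and 6348 to 9549 in LCM20 arrays. Of these markers C1qb and Itgam had means below 65.3 in every group. Among 6 tested lymphocyte and pan-leukocyte markers 4 were higher (Laptm5, Cd3d, Cd3g and Ccl5) and none lower in either LCM group, with medians of 1.22 and 1.08. Cd3d had a sieved mean below 65.3, so it passed the filter through the microdissected samples. The T cell and B cell markers Cd3e, Cd8a and Cd79b had means below 65.3 in every group. The part of such cells in the Il1b and Csf1 results was not tested. The genes most like Il1b were Arf2 (r = 0.98), Mrps17 (r = 0.97) and Zmym2 (r = 0.97). Those most like Csf1 were Ins1 (r = 0.96), Icos (r = 0.96) and St8sia3 (r = 0.95), which had mean signals of 161, 116 and 87.5 in sieved and 462, 239 and 190 in LCM800 arrays.

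Tgfb1 was dim everywhere. Its signals were 30.04, 26.0, 43.9 and 11.5 in sieved, 17.1, 62.4, 9.55, 5.95 and 6.83 in LCM800, and 6.93, 6.38, 8.49 and 6.22 in LCM20 samples. All 13 values were below 65.3, although the LCM20 range lay under the sieved range. Without LCM800 replicate 2 the LCM800 mean was 9.86 in place of 20.4. The fit without the filter gave −0.15 ± 0.16 in LCM800 (limma adjusted p = 0.453) and −0.35 ± 0.16 in LCM20 (limma adjusted p = 0.103). The probe set therefore gives little information on the level of this gene. Pdlim5 (r = 0.86), Ssh3 (r = 0.83) and Ercc1 (r = 0.83) were the genes most like it.

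Genes of the TGF-β pathway could be read from other probe sets. Acvrl1, an endothelial receptor of this family, rose by 1.73 ± 0.37 in LCM800 (limma adjusted p = 0.00119) and by 1.79 ± 0.39 in LCM20 (limma adjusted p = 0.00162). Tgfbr1, which encodes a receptor kinase, had changes of −0.24 and 0.11 that did not pass (limma adjusted p = 0.388 and 0.739). Dcn, the gene of decorin, which binds TGF-β, fell by 2.35 ± 0.30 in LCM800 (limma adjusted p = 1.82e-05) and fell by 2.65 ± 0.32 in LCM20 (limma adjusted p = 1.42e-05). Ccn2, a target of TGF-β that encodes connective tissue growth factor, rose by 1.499 ± 0.39 in LCM800 (limma adjusted p = 0.00441) and by 2.15 ± 0.41 in LCM20 (limma adjusted p = 0.000576). The inhibitory Smad7 had changes of 0.90 and 0.86 by its brightest probe set (limma adjusted p = 0.00267 and 0.00607), while its other tested probe set had −0.06 and −0.35 (limma adjusted p = 0.902 and 0.449). The matrix gene Fn1 fell by 0.81 in LCM800 (limma adjusted p = 0.0253) and had a change of −0.23 in LCM20 (limma adjusted p = 0.56). The collagen gene Col1a1 had changes of 0.74 and 0.47 by its tested probe set (limma adjusted p = 0.00432 and 0.0659). Its other probe set did not pass the filter and had −0.53 and −0.73 in the fit without it (limma adjusted p = 0.0434 and 0.0137). No probe set of the collagen gene Col4a1 was called in either LCM group.

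**Figure D3:**
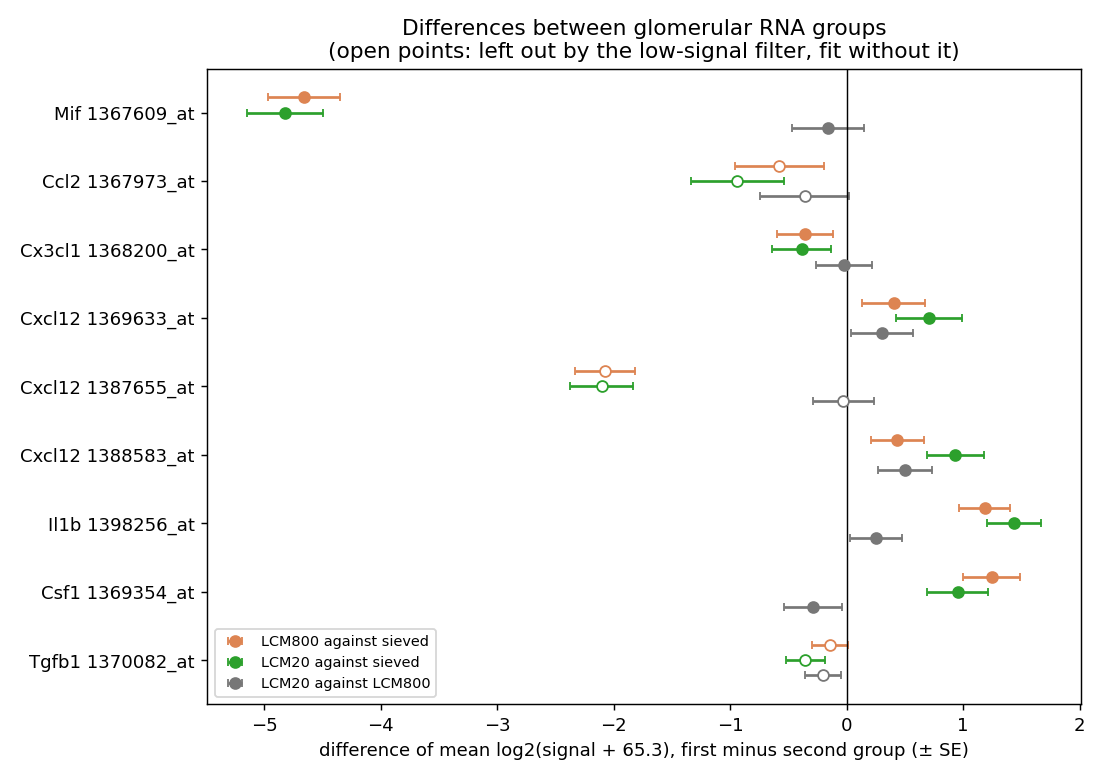
Difference of mean log2(signal + 65.3) with its SE for the 9 probe sets in the 3 comparisons, first group minus second, with open points for the 3 probe sets that did not pass the low-signal filter and come from the fit without it. Mif lies near −4.7 and −4.8 against sieved, Il1b and Csf1 lie between 0.95 and 1.43, and the grey points of LCM20 against LCM800 lie within 0.50 of 0.

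The members' calls were read against the share of the whole array that was called. In LCM800 against sieved 51.9% of all tested probe sets were called, 31.8% higher and 20.1% lower. Of the 6 member probe sets tested, 2 were higher (Il1b and Csf1) and 1 was lower (Mif). In LCM20 against sieved 45.3% were called, 26.2% higher and 19.2% lower, and 3 member probe sets were higher (Il1b, Csf1 and Cxcl12 by 1388583_at) and 1 was lower (Mif). The same 3 and 4 member probe sets had sample ranges that did not overlap, as did 42.8% (26.7% higher, 16.1% lower) and 43.8% (25.6% higher, 18.2% lower) of all tested probe sets. Members that passed the filter through the group where they are bright had to differ, so these counts carry little weight. In LCM20 against LCM800 0.153% of all tested probe sets (0.072% higher, 0.081% lower) were called by limma and none of the 6 members was, with 1 member (Cxcl12 by 1388583_at, 0.50 ± 0.23) at an unadjusted p under 0.05. Ranges did not overlap for 3.84% of all tested probe sets (1.6% higher, 2.24% lower) and for 0 members. That probe set passed at 0.79 without LCM800 replicates 4 and 5 (limma adjusted p = 0.011, in a range up to 0.966).

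Other genes of the same pathways were read from lists by role, with 1 probe set per gene. Of 25 other cytokine and chemokine ligand genes tested, 12 rose and 4 fell in LCM800, with a median change of 0.48 against 0.22 for all probe sets. In LCM20 9 rose and 5 fell, with a median of 0.21 against 0.17. The shares of all probe sets called were 31.8% higher and 20.1% lower in LCM800, and 26.2% and 19.2% in LCM20. Spp1, the osteopontin gene, fell by 3.06 ± 0.24 in LCM800 (limma adjusted p = 2.49e-07) and fell by 2.67 ± 0.26 in LCM20 (limma adjusted p = 1.63e-06), the largest change of the list in both. Il16, which encodes a chemoattractant for CD4+ cells, rose by 1.73 ± 0.16 in LCM800 (limma adjusted p = 1.19e-06) and by 1.49 ± 0.17 in LCM20 (limma adjusted p = 1.01e-05). Bmp2, of the TGF-β superfamily, rose by 1.28 and 1.57 (limma adjusted p = 0.000166 and 6.11e-05), and the chemokine gene Ccl4 rose by 0.97 and 1.17 (limma adjusted p = 0.000809 and 0.000335). The other Bmp2 probe set did not pass the filter and had 0.73 and 0.16 in the fit without it (limma adjusted p = 0.0109 and 0.604). Il6 and Tnf did not pass the filter. The mean sieved signals of Il16 (89.7), Il1rap (121), Cxcr2 (78.9) and Mmp9 (55.6) lay under the filter level of 131. So did those of the ligand genes Il12b (96.7), Tgfb3 (127.5), Ccl3 (103) and Pf4 (109.5), which rose in LCM800. Like Il1b, these genes passed the filter through the microdissected samples. The number of ligand genes that rose and the median change of that list therefore carry little weight.

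Of 14 receptor genes tested, 4 rose and 3 fell in LCM800 and 4 rose and 2 fell in LCM20, with medians of 0.46 and 0.43. Over all probe sets 31.8% were called higher and 20.1% lower in LCM800, and 26.2% and 19.2% in LCM20. The medians of all probe sets were 0.22 and 0.17. Cxcr2 and Il1rap passed the filter through the microdissected samples, so the number of receptor genes that rose and these medians carry little weight. Besides those given above, Cxcr2, a neutrophil chemokine receptor gene, rose by 1.05 in LCM800 (limma adjusted p = 0.00326) and had a change of 0.48 in LCM20 (limma adjusted p = 0.158). Sdc4, the gene of a cell surface proteoglycan, had changes of −1.36 and −0.90 that passed (limma adjusted p = 0.0011 and 0.0235). Of 16 genes that process, activate or inhibit the members, 6 rose and 3 fell in LCM800 (median −0.11) and 7 rose and 6 fell in LCM20 (median 0.19). Without sieved replicate 3, or without LCM800 replicates 1, 2 and 3, 5 of them fell in LCM800. Mmp9, a gelatinase gene, had the largest rise, 2.49 ± 0.40 in LCM800 (limma adjusted p = 0.000122) and 2.56 ± 0.42 in LCM20 (limma adjusted p = 0.000194), from a mean signal of 55.6 in sieved arrays that is under the added constant. Its other probe set did not pass the filter and had 0.47 and 0.81 in the fit without it (limma adjusted p = 0.252 and 0.0775).

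Of 29 signalling and target genes, 10 rose and 5 fell in LCM800 and 8 rose and 3 fell in LCM20, with a median of 0.27 in each. Without LCM800 replicates 1, 2 and 3 only 2 of them fell in LCM800, and without LCM800 replicates 4 and 5 it was 3. Over all probe sets 31.8% were called higher and 20.1% lower in LCM800, and 26.2% and 19.2% in LCM20, with median changes of 0.22 and 0.17. Nfkbia, the gene of the inhibitor of NF-κB, fell by 1.84 ± 0.56 in LCM800 (limma adjusted p = 0.0121) and fell by 2.71 ± 0.59 in LCM20 (limma adjusted p = 0.00168), while Rela, of NF-κB itself, rose by 1.03 and 1.25 (limma adjusted p = 0.00154 and 0.000661). The 3 tested probe sets of Jun, of the AP-1 transcription factor, went in opposite directions. The brightest had changes of 1.77 ± 0.27 in LCM800 (limma adjusted p = 7.16e-05) and 2.10 ± 0.28 in LCM20 (limma adjusted p = 3.51e-05). The other Jun probe sets had −0.84 and −1.71 in LCM800 (limma adjusted p = 0.0179 and 5.83e-05) and −1.61 and −1.50 in LCM20 (limma adjusted p = 0.00037 and 0.000365), so no direction is given for this gene. Between LCM20 and LCM800 limma called none of the genes of these 4 lists, and at an unadjusted p under 0.05 there were 0 ligands, 2 receptors, 5 processing genes and 5 signalling genes.

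**Figure D4:**
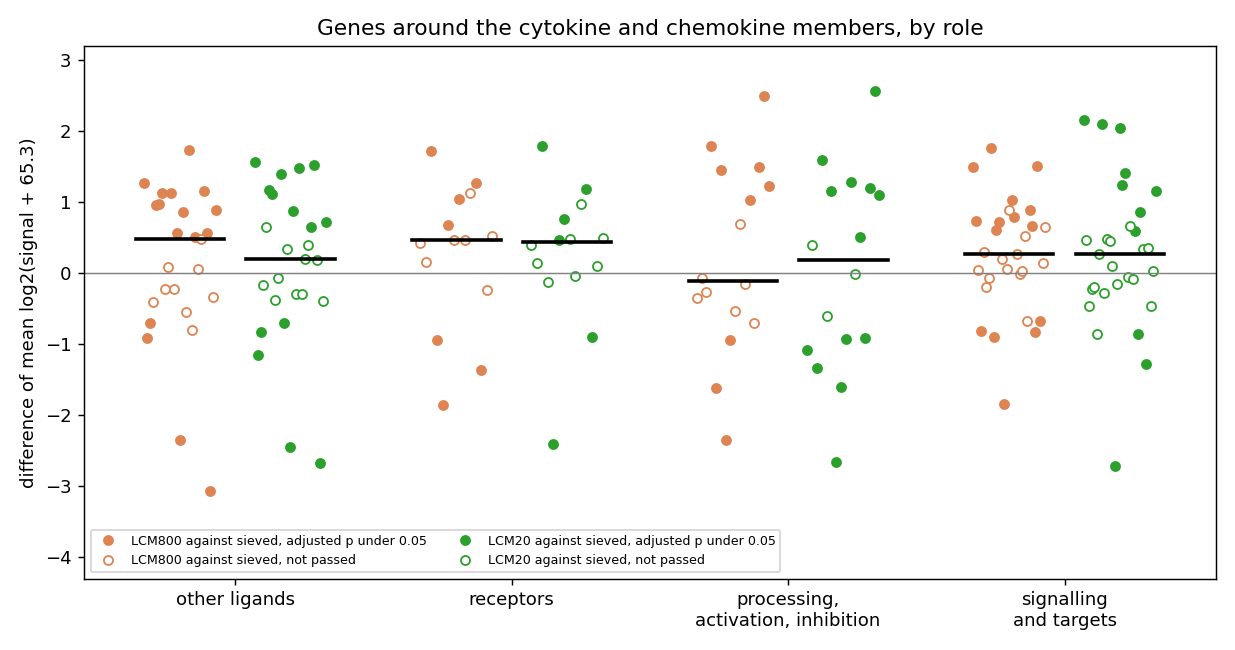
Difference of mean log2(signal + 65.3) against sieved for the tested genes of 4 lists (25 other ligands, 14 receptors, 16 processing genes, 29 signalling and target genes), 1 point per gene, filled where the adjusted p was under 0.05, with a black line at the list median. Each list holds genes on both sides of 0 in both LCM groups.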

How the data were processed

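Rat 230A arrays of 13 samples were read from 1 table of linear intensity values, which the authors deposited as MAS5 signals per the submitters' processing notes. Per the values, the mean of each array without 2% of values at each end was 500, so no further scaling was done. The MAS5 version, detection calls and probe positions are not given in the sources used here. Signals were taken as log2(signal + 65.3). The 57 control probe sets and the lowest 30% by mean log2 were left out. Gene symbols came from the platform annotation (12783 probe sets with 1 symbol, 312 with several, 2771 with none) and were updated through RefSeq gene identifiers. A list gene was represented by its brightest probe set. One linear model without covariates held all 3 groups (limma 3.58.1, R 4.3.3), with variances moderated by eBayes along mean intensity. In data simulated for LCM800 against sieved, over 11106 probe sets, 94% of changes of 2 and 45% of changes of 1 on the log2 scale were recovered. The simulation changed 100 probe sets at each size, far fewer than were called in the data, and gave all groups the same spread. These shares therefore do not measure the power of the tests above. No arrays were identical. Alternatives were other scalings, constants, filters, variance models, array weights, a replicate block, 2 groups alone, left-out arrays and averaged probe sets.

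Members and lists were chosen with earlier results of these data known. By the rule, the text names the 2 genes of each of the 4 pathway lists that changed most among those called, per comparison, and all called genes of a pathway list where 5 or fewer were called. Cell type markers are outside the rule. Other genes were picked for their place in the pathways after their values were seen. Pearson's r over 13 arrays gave the 3 genes most like each member. For every member this r includes differences between groups as well as those within them. Precision is limited by how few arrays there are.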

Additional observations from a re-analysis of the deposited data

Results flagged for a closer look

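In 27 sets of replicates (9 probe sets in 3 groups) the highest or lowest sample was set against the range of its group. By Dixon's criterion on unlogged signals 4 stood apart. Chance alone gives about 1 in 20 for independent sets with a normal spread. These sets share arrays, and unlogged signals need not have a normal spread, so the count cannot be set against that rate. LCM20 replicate 4 had a Mif signal of 150, against 10.2 to 15.2 in the other 3 samples. The same array had 23.0 for the Cxcl12 probe set 1387655_at, against 4.17 to 5.45. For that probe set sieved replicate 3 had 634, against 146 to 201. LCM800 replicate 2 had a Tgfb1 signal of 62.4, against 5.95 to 17.1, all below the constant added before the log.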

How the results depend on the processing

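Of 369 values of member probe sets recomputed under an alternative with a test, 359 were counted as unchanged. Of the values with a main test, 10 passed only under the alternative. None of the called changes was lost or turned where its probe set was still tested. Values of probe sets without a main test were counted as unchanged. Among these, Cxcl12 1387655_at passed without the filter in LCM800 and LCM20 against sieved (limma adjusted p = 2.13e-05 and 3.86e-05). Calls over all probe sets ran from 4941 to 5723 in LCM800 and from 4143 to 4957 in LCM20 against sieved with 1 array left out, and with the lowest 60% left out, where fewer were tested, they were 3503 and 3260. Member calls in LCM800 were 1 with that filter, which keeps 4 members, and 5 with array weights. In LCM20 against sieved they ran from 4 to 5 with 1 array left out. In LCM20 against LCM800 the 17 calls over all probe sets (1952 at an unadjusted p under 0.05) became 10 with no constant, 10 with no filter, 859 with array weights, 0 with only both groups fitted (1496 unadjusted), 2581 without LCM800 replicates 4 and 5, with 1 member called, and 0 to 502 with 1 array left out (502 without LCM800 replicate 4, 195 without replicate 5, 0 without LCM800 replicate 1, 2 or 3 or LCM20 replicate 2, 1 without LCM20 replicate 1 and 10 without LCM20 replicate 3); the cause was not tested. The labels do not say that replicate numbers pair samples. Same-numbered sieved and LCM800 arrays deviated together with r of 0.17, −0.04, 0.06 and −0.15, and sieved and LCM20 arrays with 0.23, −0.24, −0.24 and −0.10. Sieved replicate 1 deviated most like replicate 1 of each LCM group, and no other sieved replicate was closest to its own number. With so few arrays these r cannot show whether the numbers pair samples, so the main model assumed no pairing. With the replicate block the calls were 5452 and 4874 against sieved and 0 between the LCM groups (2473 unadjusted), and no member call changed. Setting the array medians equal gave Mif changes of −4.77 and −4.83, with medians over all probe sets of 0.12 and 0.16 in place of 0.22 and 0.17. Signals under 65.3 carry little order, which limits Tgfb1, Ccl2 and the microdissected values of Mif and of the Cxcl12 probe set 1387655_at.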
